A study of Mus musculus with 9 samples.

Results

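Genes of the major histocompatibility complex (MHC) and of antigen presentation were taken from the deposited expression table by their symbols. A gene was a member when its symbol started with H2- or equalled B2m, Tap1, Tap2, Tapbp, Cd74, Ciita or Nlrc5, which gave 51 of the 26214 genes listed. Of these, 38 belonged to class I, 12 to class II and 1, H2-Ke6, to neither class. Class I molecules are heavy chains that pair with the light chain beta-2 microglobulin and show peptides from inside the cell to CD8 T cells and natural killer cells, and most nucleated cells make them. Their peptides are cut by the proteasome, carried into the endoplasmic reticulum by the TAP transporter and loaded with the help of tapasin. Class II molecules are pairs of alpha and beta chains that show peptides from endosomes to CD4 T cells. They are made mainly by dendritic cells, B cells and macrophages, and other cells, stromal cells among them, can make them after exposure to interferon gamma.

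RNA was sequenced from cells of C57Bl/6 mice (C57Bl/6 J in the paper) aged 8 to 12 weeks. The cells were taken at day 1 after an injection into the quadriceps muscle. Adipose stromal cells (ASCs, 3 libraries) of the subcutaneous adipose tissue and fibro-adipogenic progenitors (FAPs, 2 libraries) of the muscle came from mice given NaCl, the non-injured control. Injured FAPs (3 libraries) came from the muscle of mice given glycerol, which damages the fibres. These cells had been sorted for Sca-1 after removal of cells with CD31 or CD45, and cells of 3 animals were pooled. Whether each library had a pool of its own or the libraries of a group came from the same pool is not clear. One more library, of CD31+CD45+ cells of glycerol-injured muscle, had no replicate and entered no test. Total reads were 27349184 to 27481573 for ASCs, 24052508 and 24164447 for FAPs, 26698572 to 27028114 for injured FAPs and 13091077 in the CD31+CD45+ library. Values are normalized counts, and 3 reads were worth 2.29 to 4.71 on this scale depending on the library.

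The labels were set against marker genes. Pdgfra, a receptor that marks stromal progenitors of muscle and fat, was 10837, 15083 and 13043 in ASCs, 17754 and 17756 in FAPs, 23649 and 23236 in replicates 1 and 3 of injured FAPs, and 25268 in their replicate 2, against 119 in the CD31+CD45+ library. All 10 mesenchymal stromal markers were above 0 in each of the 8 sorted libraries, with sums from 687674 in injured FAP 3 to 3252760 in ASC 3, and Col1a1 or Col3a1 was the most abundant. In the CD31+CD45+ library all 10 were above 0 too, with a sum of 69361. Ly6a, which codes for Sca-1, was 17672 there, above both FAP libraries (16542 and 10823) and below the ASC and injured FAP libraries. Cd34 was 17085 there, above the injured FAP libraries (10736 to 11933) and below the ASC and FAP libraries. Ptprc, which codes for CD45, was 0, 1.13 and 0 in ASCs, 0 and 0 in FAPs, 11.8 and 9.92 in replicates 1 and 3 of injured FAPs, and 55.8 in their replicate 2, against 797 in the CD31+CD45+ library. It was at or near 0 in ASCs and FAPs and above 9 in each injured FAP library, the highest in replicate 2. Pecam1, which codes for CD31, was 83.0, 46.4 and 67.8 in ASCs, 195 and 0 in FAPs, 192 and 121 in replicates 1 and 3 of injured FAPs, and 269 in their replicate 2, against 45323 in the CD31+CD45+ library. The 12 endothelial markers summed to 6650, 5272 and 7040.1 in ASCs, with Tek the most abundant, to 7404 and 4977 in FAPs, also with Tek on top, and to 2103, 2316 and 1809 in injured FAPs and 398169 in the CD31+CD45+ library, with Cdh5 the most abundant. Vwf, Emcn and Cldn5 were listed at 0 in both FAP libraries while Cdh5 was 1438 and 686 there.

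Of the 51 members, 25 had a mean of at least 10 over the 8 sorted libraries and were tested among 13601 such genes. These were 18 of class I, 6 of class II and H2-Ke6. Just above that limit lay H2-T-ps (mean 24.5), H2-T22 (25.1) and H2-Eb1 (28.6), and just below it H2-M9 (5.31), H2-M5 (3.65) and H2-Q1 (3.13). Of the 20 class I members not tested, 12 were listed at 0 in the 8 sorted libraries and 8 were above 0 with a highest mean of 5.31. Of the 6 class II members not tested, H2-Ea was listed at 0 in each library, and H2-DMb2, Ciita, H2-Ob, H2-Oa and H2-Eb2 had means of 2.70 at most. A gene that passed this limit only through the group in which it was high had to differ between groups, so the counts of called members describe the tested ones and no others. A gene was called when the limma adjusted p was under 0.05 and the log2 fold change was beyond 0.58 in either direction. The p-values measure only the spread between these libraries, which may not hold the spread between animals.

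Many class I genes are near copies of each other, and the strand setting and the handling of reads with several matches are not stated, so genes with shared stretches are uncertain. Of the 100-base words in the annotated transcripts, 31.5% of H2-T22, 28.1% of H2-T10, 14.1% of H2-Q4, 14.0% of H2-Q5 and 13.0% of H2-Q6 also occurred in another gene. For H2-D1 this share was 3.59% and for H2-K1 0.957%. No such word was shared for B2m, Nlrc5, H2-M3, H2-T24, Cd74, H2-Aa, H2-Ab1 or H2-Eb1. H2-Q7, H2-Q8, H2-Q9, H2-T9 and H2-Bl, close relatives of tested members, were listed at 0 in all 9 libraries. Tapbp shared 14.7% with the gene model Gm19412, and H2-Ke6 shared 61.6% with Gm20427. Of the 46 members found in the GENCODE M21 annotation, 42 lay on chromosome 17 within 3.57 Mb, from Tapbp to H2-M2.

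Class I RNA was abundant in each library and higher in ASCs than in both kinds of FAP. The 38 class I members summed to 107474, 91494 and 95500.1 in ASCs, 33359 and 34339.8 in FAPs and 36319, 28755 and 32570.2 in injured FAP replicates 1 to 3, the lowest in replicate 2. ASCs had a mean of 98156 ± 8314 (SD, n = 3), FAPs one of 33849.6 ± 693 (SD, n = 2) and injured FAPs one of 32548 ± 3782 (SD, n = 3). The ASC libraries lay well above the others, with a mean 2.90 times that of FAPs, and the FAP and injured FAP libraries overlapped. As a share of all reads, class I made up 0.278 to 0.297% of ASC libraries, 0.146 and 0.151% of FAP libraries and 0.139 to 0.172% of injured FAP libraries. The CD31+CD45+ library, with a sum of 106002 and a share of 0.516%, was near the ASC libraries in sum. In bulk RNA, fewer cells of a type and less RNA per cell cannot be told apart.

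Per kilobase of exon, B2m was the highest class I gene in each group, with a mean level of 44016 per kb in ASCs, 14136 in FAPs and 14048 in injured FAPs. The classical heavy chains followed, H2-K1 at 6979.6, 1956 and 1943 per kb and H2-D1 at 6299, 2183 and 1735 per kb in the same order of groups. Between these heavy chains the order differed, since H2-K1 had the higher mean per kb in ASCs and injured FAPs and H2-D1 in FAPs. Next in ASCs came H2-Q4 at 2184 per kb, Tapbp at 2154 and H2-T23 at 1069, while Tap2 (562) and Tap1 (492) were lower and Nlrc5 (62.3) was far lower. The CD31+CD45+ library held 45393 per kb of B2m and 8053 per kb of H2-K1.

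The comparison of ASCs with FAPs sets the stromal cells of fat beside those of uninjured muscle. Of the 18 class I members tested, 15 were higher in ASCs and 0 lower, with H2-K2, H2-T10 and H2-T22 not called. Over all genes tested, 47.2% were called in this comparison, 23.4% higher and 23.8% lower. The median log2 fold change of the class I members was 1.58, against 0.0049 over all genes. At an unadjusted p under 0.05, 1 class I member was lower, H2-T22, and edgeR also called 1 lower and DESeq2 0. B2m, the light chain of every class I molecule, was 42815, 33687 and 37059.9 in ASCs, 11577 and 12737 in FAPs, 13999 and 11872 in replicates 1 and 3 of injured FAPs, and 10373 in their replicate 2. All 3 ASC libraries were above all FAP and injured FAP libraries, which overlapped. The difference was 3.10-fold (log2 fold change 1.63 ± 0.15 (SE), limma adjusted p = 9.04e-06, higher in 3 of 3 ASC libraries). H2-K1, a classical heavy chain, was 20773, 19545 and 21199.5 in ASCs, 5924 and 5567 in FAPs, 6021 and 5899.6 in replicates 1 and 3 of injured FAPs, and 5202 in their replicate 2. The groups were split in the same way, and ASCs were 3.57-fold above FAPs (log2 fold change 1.83 ± 0.10 (SE), limma adjusted p = 3.96e-07). H2-D1, the other classical heavy chain, was 18243, 13988 and 16506 in ASCs, 5758 and 5505 in FAPs, 4927 and 4447 in replicates 1 and 3 of injured FAPs, and 4050.1 in their replicate 2. ASCs were again above every other sorted library, 2.87-fold above FAPs (log2 fold change 1.52 ± 0.13 (SE), limma adjusted p = 5.75e-06).

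Among the nonclassical heavy chains, H2-Q4 of the Qa group was 6388, 5676 and 4947 in ASCs, 1569.9 and 2054 in FAPs, 1779 and 1725 in replicates 1 and 3 of injured FAPs, and 1466 in their replicate 2. Each ASC library was above each other sorted library, and the difference from FAPs was 3.14-fold (log2 fold change 1.65, limma adjusted p = 8.05e-06). H2-T23 codes for Qa-1, a ligand of receptors on natural killer cells, and was 3380.3, 3598 and 2289 in ASCs, 1402 and 1249 in FAPs, 1061 and 1109.8 in replicates 1 and 3 of injured FAPs, and 795 in their replicate 2. The lowest ASC library was above the highest FAP library (log2 fold change 1.20, limma adjusted p = 0.000526). H2-M3, which can present peptides that start with formyl-methionine, was 283, 305 and 321 in ASCs, 126 and 155 in FAPs, 160.1 and 161 in replicates 1 and 3 of injured FAPs, and 156 in their replicate 2. ASCs were above the other groups, which lay close together (log2 fold change 1.11, limma adjusted p = 0.000141). H2-Q6, a gene of the Qa-2 group, was 544, 529 and 599 in ASCs, 18.1 and 40.5 in FAPs, 109.8 and 61.8 in replicates 1 and 3 of injured FAPs, and 70.5 in their replicate 2. It had the largest log2 fold change of the tested class I members in this comparison, 19.8-fold (log2 fold change 4.31 ± 0.33 (SE), limma adjusted p = 2.65e-06). H2-T24, of the T region, was 177, 253 and 84.1 in ASCs, 23.8 and 23.5 in FAPs, 101.2 and 80.8 in replicates 1 and 3 of injured FAPs, and 58.9 in their replicate 2. The ASC libraries spread widely and all lay above the FAPs (log2 fold change 2.67, limma adjusted p = 0.000281). H2-Q5, H2-Q10, whose product is known as a secreted class I chain of the liver, and the pseudogene H2-T-ps were also higher in ASCs, with means of 51.8 to 97.6 there and 4.73 to 35.0 in FAPs (log2 fold changes 1.41, 2.26 and 3.18).

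The genes of peptide transport and loading were higher in ASCs too, by less than B2m in Tap2 and Tapbp. Tap1, a subunit of the peptide transporter, was 3397, 2561 and 2120.3 in ASCs, 671 and 669 in FAPs, 1469 and 1335 in replicates 1 and 3 of injured FAPs, and 1259 in their replicate 2. Both FAP libraries were the lowest, injured FAPs came next and ASCs were on top, with no overlap between the groups. ASCs were 3.94-fold above FAPs (log2 fold change 1.98 ± 0.17 (SE), limma adjusted p = 5.83e-06). Tap2, the other subunit, was 2319, 2106 and 1952 in ASCs, 1181 and 1262 in FAPs, 1276 and 1182 in replicates 1 and 3 of injured FAPs, and 1154 in their replicate 2. Here FAPs and injured FAPs overlapped and ASCs stood above both (log2 fold change 0.80, limma adjusted p = 0.000112). Tapbp codes for tapasin, which holds empty class I molecules at the transporter, and was 8007, 8029 and 7410.5 in ASCs, 4661 and 4611 in FAPs, 5028 and 4338 in replicates 1 and 3 of injured FAPs, and 3883 in their replicate 2. It was 1.69-fold higher in ASCs than in FAPs (log2 fold change 0.75, limma adjusted p = 0.000299). Nlrc5, the transactivator of class I genes, was 609.9, 564 and 413 in ASCs, 45.6 and 85.6 in FAPs, 133 and 115 in replicates 1 and 3 of injured FAPs, and 89.9 in their replicate 2. The ASC libraries were far above the others, 8.23-fold above FAPs (log2 fold change 3.04 ± 0.28 (SE), limma adjusted p = 9.7e-06).

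These differences depended on the scaling in size. With quantile normalization the log2 fold change of ASCs against FAPs was 0.86 for B2m, 1.10 for H2-K1 and 0.84 for H2-D1, all still called. Tapbp was at 0.15 and Tap2 at 0.53 under that setting and were not called, and Tapbp was at 0.54 and not called when libraries were brought to a common 75th percentile. The class I median was 1.16 with quantile normalization and 1.37 with the 75th percentile. H2-K2, a pseudogene in the annotation, was 244, 275 and 223 in ASCs, 210.1 and 189 in FAPs, 89.4 and 89.2 in replicates 1 and 3 of injured FAPs, and 60.4 in their replicate 2. ASCs and FAPs lay close for it (log2 fold change 0.31, limma adjusted p = 0.225), and injured FAPs were the lowest. H2-T10 and H2-T22, known as ligands of gamma delta T cell receptors, had log2 fold changes of -0.38 and -0.82 (limma adjusted p = 0.376 and 0.0546), and H2-T22 was called lower when ASC 1 was left out (-0.99, limma adjusted p = 0.0284).

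**Figure D1:**
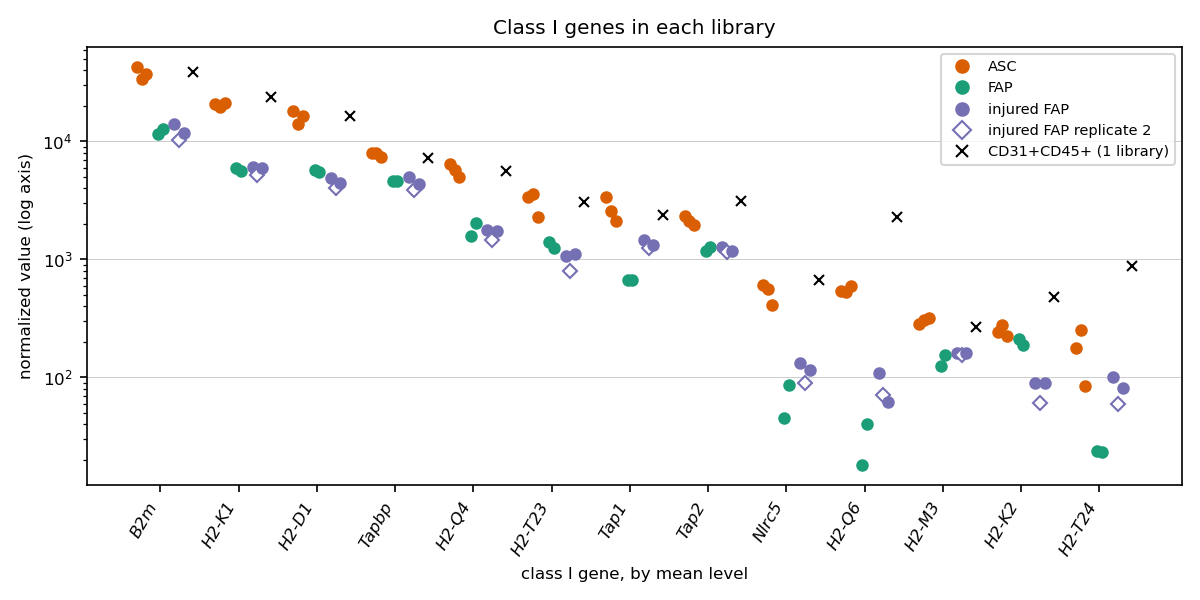
Normalized value (log axis) of the 13 class I genes with a mean of at least 100 in ASCs, FAPs or injured FAPs, 1 point per library, with injured FAP replicate 2 as an open diamond and the CD31+CD45+ library as a cross. B2m was 33687 to 42815 in ASCs and 10373 to 13999 in FAPs and injured FAPs, and Tap1 was 669 to 671 in FAPs against 1259 to 1469 in injured FAPs.

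The comparison of injured FAPs with FAPs sets the sorted muscle cells 1 day after glycerol beside those 1 day after NaCl. In bulk RNA, a change within cells and a change in which cells were present cannot be told apart. The most abundant class I genes, B2m, H2-K1 and H2-D1, were not called, and the genes that rose were Tap1, Nlrc5, H2-Q6, H2-T24, H2-Q10 and H2-T-ps. Of the 18 class I members tested, these 6 were called higher and 2, H2-K2 and H2-T22, lower, while over all genes tested 52.6% were called, 24.9% higher and 27.7% lower. The median log2 fold change was -0.02 for the class I members (0.04 without FAP 2 and 0.03 without injured FAP 2) and -0.05 for all genes. B2m, H2-K1, Tap2, Tapbp and H2-Q4 had log2 fold changes of -0.02, -0.01, -0.02, -0.08 and -0.12, and their groups overlapped. The 95% interval was -0.35 to 0.32 for B2m and -0.24 to 0.22 for H2-K1. H2-D1 (-0.34, limma adjusted p = 0.0419) and H2-T23 (-0.44, 0.0777) were lower in each injured library than in both FAP libraries, by less than the fold threshold. H2-M3 was at 0.19.

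Tap1 had the smallest adjusted p of the rises among the class I members of this comparison. Its mean went from 670.1 ± 1.72 (SD, n = 2) to 1354 ± 106 (SD, n = 3), 2.02-fold higher (log2 fold change 1.01 ± 0.17 (SE), limma adjusted p = 0.000437, higher in 3 of 3 libraries), and it was called in each of the 19 alternatives. Tap2, whose gene lies 6.30 kb away on the same strand, had means of 1221 ± 57.0 (SD, n = 2) and 1204 ± 63.8 (SD, n = 3). Psmb9, an inducible subunit of the proteasome, is read from the opposite strand with its start 226 bases from that of Tap1. It was 237, 277 and 246 in ASCs, 123 and 112 in FAPs, 169 and 182 in replicates 1 and 3 of injured FAPs, and 160.4 in their replicate 2. Injured FAPs were above FAPs and below ASCs, and the difference from FAPs was under the fold threshold (log2 fold change 0.53, limma adjusted p = 0.0106). It was 0.60 without FAP 1. It was called with quantile normalization (0.75, limma adjusted p = 0.00139) and with edgeR (0.582, edgeR adjusted p = 0.00721).

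H2-Q6 rose from a mean of 29.3 ± 15.8 (SD, n = 2) to 80.7 ± 25.6 (SD, n = 3) (log2 fold change 1.50, limma adjusted p = 0.00242). H2-T24 rose from 23.6 ± 0.179 (SD, n = 2) to 80.3 ± 21.2 (SD, n = 3) (log2 fold change 1.69, limma adjusted p = 0.00418). H2-T23, 9.21 kb from H2-T24 on the same strand, was in the uncalled group. H2-Q10 rose from 17.5 ± 0.537 (SD, n = 2) to 37.7 ± 5.24 (SD, n = 3) (log2 fold change 1.06, limma adjusted p = 0.00566). Nlrc5 rose from 65.6 ± 28.3 (SD, n = 2) to 113 ± 21.5 (SD, n = 3) (log2 fold change 0.82, limma adjusted p = 0.0259). That call was lost without FAP 1 (0.37, adjusted p = 0.289), without injured FAP 1 (0.69, 0.0856) and without injured FAP 3 (0.79, 0.0675). The rise of H2-T-ps, from 4.73 ± 0.0357 (SD, n = 2) to 10.3 ± 2.05 (SD, n = 3) (log2 fold change 0.97, limma adjusted p = 0.0417), was lost in 11 of 18 alternatives, among them the ones without ASC 3, FAP 1, FAP 2, injured FAP 1 or injured FAP 3 (0.83 to 0.99, adjusted p 0.0559 to 0.125).

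H2-K2, which lies 17.2 kb from H2-K1 on the same strand, fell from 199.6 ± 14.9 (SD, n = 2) to 79.7 ± 16.7 (SD, n = 3) (log2 fold change -1.33 ± 0.21 (SE), limma adjusted p = 0.000261), called in each of the 19 alternatives. H2-T22 fell from 41.6 ± 10.4 (SD, n = 2) to 16.0 ± 1.78 (SD, n = 3) (log2 fold change -1.31, limma adjusted p = 0.00588), a call lost without FAP 2 (-1.06, adjusted p = 0.0642) and with quantile normalization (-0.82, 0.0543). H2-T10 and H2-Q5 were not called (-0.67 and -0.72, limma adjusted p = 0.116 and 0.0643). Both were called lower without ASC 1 (adjusted p = 0.0209 and 0.0224). Injured FAP replicate 2 was slightly below replicates 1 and 3 for most class I members, with a median ratio of 0.833 (0.647 to 1.06) over the 18 tested, against 0.991 over all genes with a mean of at least 10.

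Injured FAPs were then set against ASCs. The 3 comparisons share libraries, so their fold changes are not independent of each other. Of the 18 class I members tested, 16 were lower in injured FAPs and 0 higher, and H2-T10 and H2-T22 were not called. Of all genes tested 50.8% were called, 25.0% higher and 25.8% lower. At an unadjusted p under 0.05, and with edgeR and DESeq2, the count of class I members higher was also 0. The median log2 fold change was -1.63 for the class I members and 0.02 for all genes. B2m was 3.14-fold, H2-K1 3.60-fold and H2-D1 3.62-fold higher in ASCs (log2 fold changes -1.65, -1.85 and -1.86, limma adjusted p = 2.42e-06, 1e-07 and 4.12e-07). With quantile normalization B2m was at -0.89 and H2-K1 at -1.25, and Tapbp (otherwise -0.83) was at -0.39 and not called. Tap1, which had risen with injury, was still below its ASC level (log2 fold change -0.97, limma adjusted p = 0.000248). H2-Q6 had the largest difference, 7.03-fold higher in ASCs (log2 fold change -2.81, limma adjusted p = 1.36e-05). H2-T24 overlapped between the groups (log2 fold change -0.98, limma adjusted p = 0.0351), and its call was lost without ASC 1 (-0.89, 0.0712), ASC 2 (-0.63, 0.128), injured FAP 2 (-0.77, 0.127) or injured FAP 3 (adjusted p = 0.078). H2-T10 was called lower without ASC 1 (-0.66, adjusted p = 0.024).

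**Figure D2:**
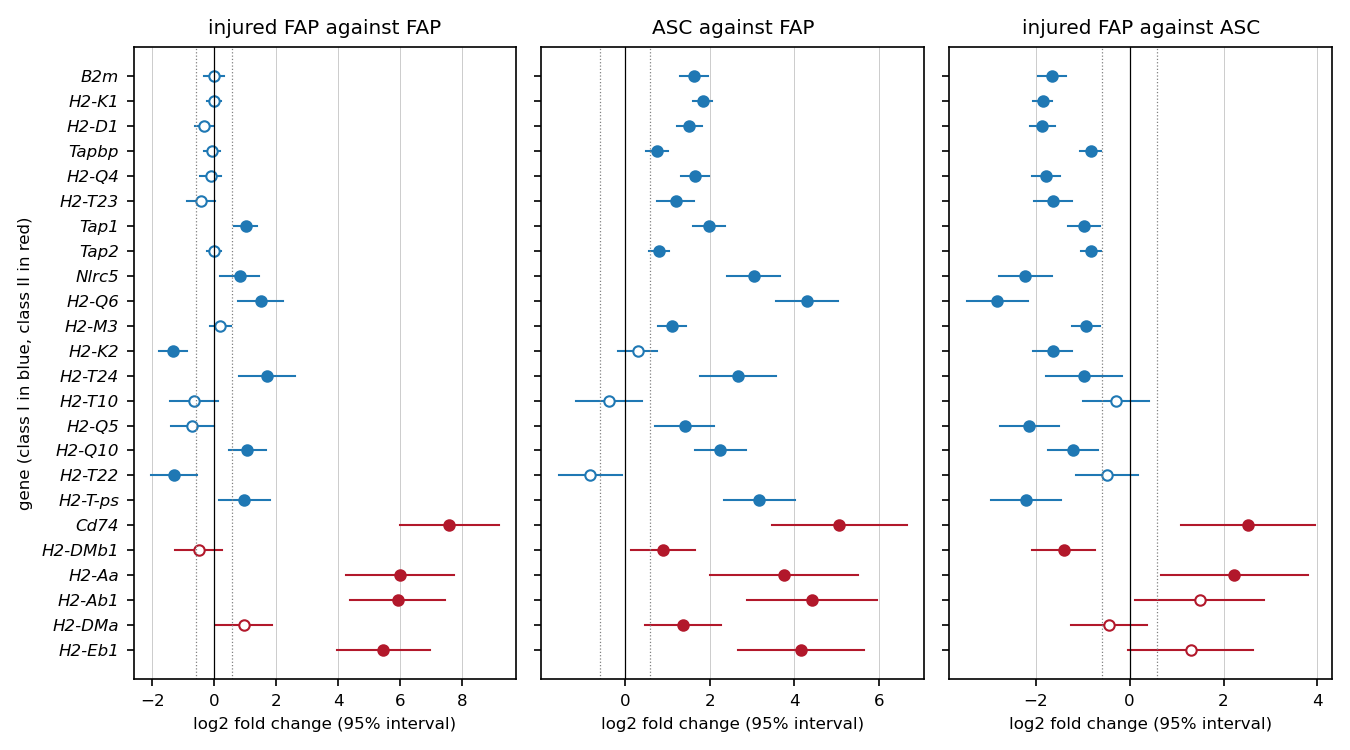
Log2 fold change with its 95% interval from limma for the 18 class I (blue) and 6 class II (red) members tested, in 3 comparisons, with filled points for called genes and dotted lines at the fold threshold of 0.58. Class I fold changes spread around 0 in injured FAPs against FAPs (median -0.02) and lie mostly above 0 in ASCs against FAPs (median 1.58), and the class II values for Cd74, H2-Aa, H2-Ab1 and H2-Eb1 against FAPs rest on 0 reads in both FAP libraries.

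The promoters of 5 class I members that were higher in ASCs are shown beside those of the class II genes H2-Aa and H2-Eb1. Promoter sequences came from RefSeq (GRCm38.p6), where 35 of the 51 members and 17 of the 25 tested ones matched by symbol, and each run below holds the 200 bases before the first listed start of the gene, written 5′ to 3′ on the gene's strand. The windows lie at chr17:34000348-34000547 (minus strand), chr17:35262894-35263093, chr17:35379417-35379616, chr17:35424650-35424849, chr2:122147487-122147686 (plus strand), chr17:34287824-34288023 (minus strand) and chr17:34305667-34305866 (plus strand). Capitals mark matches, on either strand, to the letters of 5 motifs known from MHC promoters, chosen after the sequences were seen.
H2-K1: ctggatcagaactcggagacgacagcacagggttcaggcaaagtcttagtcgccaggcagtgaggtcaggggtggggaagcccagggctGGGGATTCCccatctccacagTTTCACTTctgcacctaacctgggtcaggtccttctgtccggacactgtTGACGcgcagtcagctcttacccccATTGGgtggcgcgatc
H2-D1: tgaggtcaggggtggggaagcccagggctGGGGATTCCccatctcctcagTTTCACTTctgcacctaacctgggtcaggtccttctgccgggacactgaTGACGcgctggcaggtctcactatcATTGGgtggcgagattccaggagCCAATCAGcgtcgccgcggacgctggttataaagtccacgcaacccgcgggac
H2-Q4: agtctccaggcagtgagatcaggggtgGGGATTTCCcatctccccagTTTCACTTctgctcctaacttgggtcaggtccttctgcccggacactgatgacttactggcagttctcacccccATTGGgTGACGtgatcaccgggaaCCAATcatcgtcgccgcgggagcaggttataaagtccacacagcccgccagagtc
H2-Q6: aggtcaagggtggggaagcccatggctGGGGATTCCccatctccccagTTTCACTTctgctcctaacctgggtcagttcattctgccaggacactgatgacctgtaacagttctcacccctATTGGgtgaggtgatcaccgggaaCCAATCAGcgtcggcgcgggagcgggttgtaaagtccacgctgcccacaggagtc
B2m: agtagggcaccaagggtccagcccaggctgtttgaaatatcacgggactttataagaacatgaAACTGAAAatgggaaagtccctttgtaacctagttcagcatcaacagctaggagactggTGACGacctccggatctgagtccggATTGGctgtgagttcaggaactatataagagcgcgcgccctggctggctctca
H2-Aa: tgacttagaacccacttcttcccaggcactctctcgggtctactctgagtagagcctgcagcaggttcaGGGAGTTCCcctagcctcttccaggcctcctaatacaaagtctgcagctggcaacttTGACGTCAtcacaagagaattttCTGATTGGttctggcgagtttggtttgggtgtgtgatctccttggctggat
H2-Eb1: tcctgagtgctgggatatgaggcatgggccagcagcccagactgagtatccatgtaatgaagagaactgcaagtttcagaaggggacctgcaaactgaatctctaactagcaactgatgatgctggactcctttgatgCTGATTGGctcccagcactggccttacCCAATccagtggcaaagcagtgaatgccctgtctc
A kappaB-like motif, GGGNNTTCC, occurred in 4 of the 12 tested class I members with a window (H2-D1, H2-K1, H2-Q4 and H2-Q6) and in 1 of 4 of class II (H2-Aa), against 4.05% of 27025 promoters. An interferon response element-like motif, TTTCNNTT, occurred in 10 of the 12 and 0 of the 4, against 17.2% of all promoters. CCAAT occurred in 10 of 12 and 3 of 4, against 30.0%. CTGATTGG, the core of the Y box, contains CCAAT read on the other strand, and occurred in 4 of 12 (H2-D1, H2-Q6, H2-T-ps and H2-T23) and 2 of 4 (H2-Aa and H2-Eb1), against 3.77%. TGACG, one side of the cyclic AMP response element, occurred in 7 of 12 and 1 of 4, against 15.8%, and in H2-Aa it stood on both strands as one overlapping run. The H2-K1 and H2-D1 windows hold the same kappaB-like and interferon response element-like letters in the same order, closer to the listed start in H2-K1 (from base -111) than in H2-D1 (from base -171). A match is a description of letters and shows no binding.

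Class II RNA was low in the sorted cells. The 12 class II members summed to 309.6, 183 and 178 in ASCs, 49.4 and 71.5 in FAPs, 268 and 244 in replicates 1 and 3 of injured FAPs, and 1197 in their replicate 2. Injured FAP 2 was 4.67 times the mean of the other injured libraries, 256, and above every other sorted library. The ASC libraries and injured FAP replicates 1 and 3 overlapped, and both FAP libraries were the lowest. Because of replicate 2 the injured mean of 569.9 ± 544 (SD, n = 3) describes no library, and values are given with and without it. The CD31+CD45+ library held 29486, of which Cd74 made up 14743.

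In injured FAPs against FAPs, 4 of the 6 class II members tested were higher, Cd74, H2-Aa, H2-Ab1 and H2-Eb1, and 0 were lower, beside the 24.9% and 27.7% of all genes. At an unadjusted p under 0.05, and with edgeR and DESeq2, the count of class II members lower was also 0. The median log2 fold change of the 6 was 5.68, and 4.63 with the genes at 0 in both FAP libraries set to their bound, against -0.05 over all genes. Without injured FAP 2 these medians were 4.88 and 3.34. Cd74, the invariant chain that guides class II molecules to endosomes, was 65.9, 21.5 and 23.9 in ASCs, 0 and 0 in FAPs, 115 and 103 in replicates 1 and 3 of injured FAPs, and 575 in their replicate 2. Every injured library was above both FAP libraries, and replicate 2 was 5.27 times the mean of the other injured ones. Against a floor of 3 reads per FAP library, a value of 2.84, Cd74 was at least 93.2-fold higher, and at least 38.5-fold with replicates 1 and 3 alone (limma adjusted p = 9.38e-06, and 1.64e-05 without replicate 2).

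H2-Aa, the alpha chain of the I-A molecule, was 25.0, 6.80 and 11.3 in ASCs, 0 and 0 in FAPs, 32.2 and 36.6 in replicates 1 and 3 of injured FAPs, and 203 in their replicate 2. It was at least 31.9-fold higher in injured FAPs, or 12.1-fold without replicate 2 (limma adjusted p = 8.56e-05, and 0.000146 without it). H2-Ab1, its beta chain, was 22.4, 24.9 and 15.1 in ASCs, 0 and 0 in FAPs, 39.2 and 28.2 in replicates 1 and 3 of injured FAPs, and 183 in their replicate 2. The bound was 29.4-fold with all libraries and 11.9-fold without replicate 2 (limma adjusted p = 3.85e-05 and 4.02e-05). H2-Eb1, the beta chain of I-E, was 17.1, 17.0 and 16.3 in ASCs, 0 and 0 in FAPs, 25.1 and 23.6 in replicates 1 and 3 of injured FAPs, and 129 in their replicate 2. It was at least 20.9-fold higher, or 8.59-fold without replicate 2 (limma adjusted p = 5.52e-05 and 5.64e-05). In each of these genes both FAP libraries were listed at 0, and replicate 2 stood far above the other injured libraries, a ratio of 5.31 to 5.90. The fitted log2 fold changes of the 4 genes, 5.45 to 7.58, depend on the pseudocount and are no bounds. Without replicate 2 they were 4.67 to 6.78.

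The class II genes that act on peptide loading had a different pattern. H2-DMb1, the beta chain of the peptide exchanger H2-DM, was 119.9, 69.1 and 67.8 in ASCs, 39.0 and 48.9 in FAPs, 28.2 and 23.6 in replicates 1 and 3 of injured FAPs, and 42.6 in their replicate 2. FAPs and injured FAPs overlapped (log2 fold change -0.50, limma adjusted p = 0.216). H2-DMa, its alpha chain, was 47.4, 35.1 and 43.9 in ASCs, 10.5 and 22.6 in FAPs, 22.8 and 27.5 in replicates 1 and 3 of injured FAPs, and 45.7 in their replicate 2. Injured FAPs were above FAPs by a small gap and the test was not passed (log2 fold change 0.94, limma adjusted p = 0.0615). With quantile normalization H2-DMa was called higher (1.37, limma adjusted p = 0.00552), and without FAP 2 it was at 1.46. H2-Oa and H2-Ob, the chains of the H2-DM inhibitor H2-DO, and Ciita, the transactivator of class II genes, were listed at 0 in both FAP libraries. Ciita was 0.785 and 0.763 in injured FAP replicates 1 and 3, 5.42 in replicate 2, 7.90, 1.13 and 0 in ASCs and 188 in the CD31+CD45+ library. At this depth a difference in Ciita between FAPs and injured FAPs was not detectable.

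The sum of leukocyte markers was also highest, among the sorted libraries, in injured FAP replicate 2, through the pan-leukocyte, macrophage and neutrophil lists. The 38 leukocyte markers summed to 686, 596 and 575 in ASCs, 533 and 778 in FAPs, 897 and 799 in injured FAP replicates 1 and 3, 3839 in injured FAP replicate 2 and 31399 in the CD31+CD45+ library. At 0 were 13, 19 and 21 of the 38 in ASCs, 31 in each FAP library and 10, 5 and 11 in injured FAPs, the fewest in replicate 2. Cd68, a lysosomal protein of macrophages, was the most abundant of them in ASC 1, ASC 3, both FAP libraries and injured FAP replicates 1 and 3, Csf1r in ASC 2, and Lyz2 in injured FAP replicate 2 and the CD31+CD45+ library. The 5 pan-leukocyte markers were listed at 0 in both FAP libraries and summed to 148, 791 and 133 in injured FAP replicates 1 to 3. Lyz2, the lysozyme of macrophages and neutrophils, was 40.8, 26.1 and 30.1 in ASCs, 0 and 0 in FAPs, 142 and 109 in replicates 1 and 3 of injured FAPs, and 725 in their replicate 2. It was listed at 0 in FAPs, low in ASCs and highest in replicate 2, like Cd74. Other macrophage markers had other patterns. Cd68 was 254 and 477 in FAPs and 212 and 183 in replicates 1 and 3 of injured FAPs. Csf1r had a higher mean in ASCs (154) than in injured FAPs (76.2). Of the 11 macrophage and monocyte markers tested, 7 were higher, 1 lower and 3 not called in injured FAPs against ASCs. Over all genes tested, 25.0% were higher and 25.8% lower. The macrophage and monocyte list summed to 569, 2763 and 483 in injured FAP replicates 1 to 3, and the neutrophil list to 16.5, 108 and 18.3. The dendritic cell list was highest in FAPs (229 and 218, against 133 to 151 in the other sorted libraries), with Zbtb46 making up most of it. The B cell list was 22.5 to 32.8 in injured FAPs, 26.6 and 48.9 in FAPs and 39.6 to 47.4 in ASCs, and the T and natural killer cell list was highest in ASC 1 (7.90) and 3.10 in injured FAP replicate 2. The part of such cells in the class II values was not tested.

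**Figure D3:**
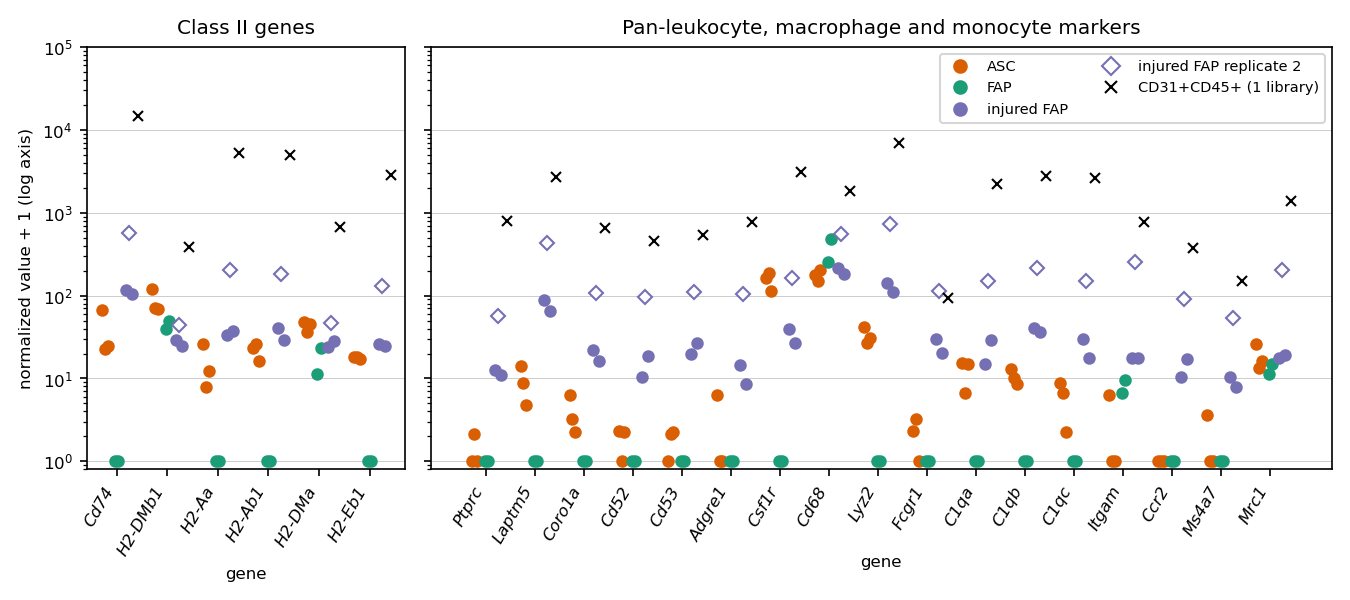
Normalized value plus 1 (log axis) of the 6 class II genes tested (left) and of 17 pan-leukocyte, macrophage and monocyte markers (right), 1 point per library. Injured FAP replicate 2 (open diamonds) is the highest injured library for each of the 6 class II genes, with Cd74 at 575 there against 115 and 103 in replicates 1 and 3 and 0 in both FAP libraries.

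Injured FAP replicate 2 was compared with the mean of replicates 1 and 3 gene by gene. For the 6 class II members with a mean of at least 10 the median ratio was 5.29 (1.64 to 5.90), and 4 of 6 were above 2. For the 18 leukocyte markers past that limit it was 5.77 (0.732 to 15.1), and 16 of 18 were above 2. For all 13107 genes past it the median was 0.991, and 0.916% were above 2. It was 1.30 for 12 endothelial markers, 0.991 for 10 mesenchymal stromal markers and 0.914 for 10 genes of class I peptide supply. Relative to the CD31+CD45+ library, the 9 class II genes with a value of at least 100 there had a median of 0.874% and 0.698% for injured FAP replicates 1 and 3, 3.90% for replicate 2, 0.215 to 0.596% for the ASC libraries and 0% for both FAP libraries. The 23 leukocyte markers chosen in the same way had 2.02% and 2.17%, 13.6%, 0.194 to 0.652% and 0%. For 16 class I genes these medians were 27.6% and 25.9%, 23.2%, 68.7 to 89.2%, and 29.0% and 33.0% in FAPs.

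**Figure D4:**
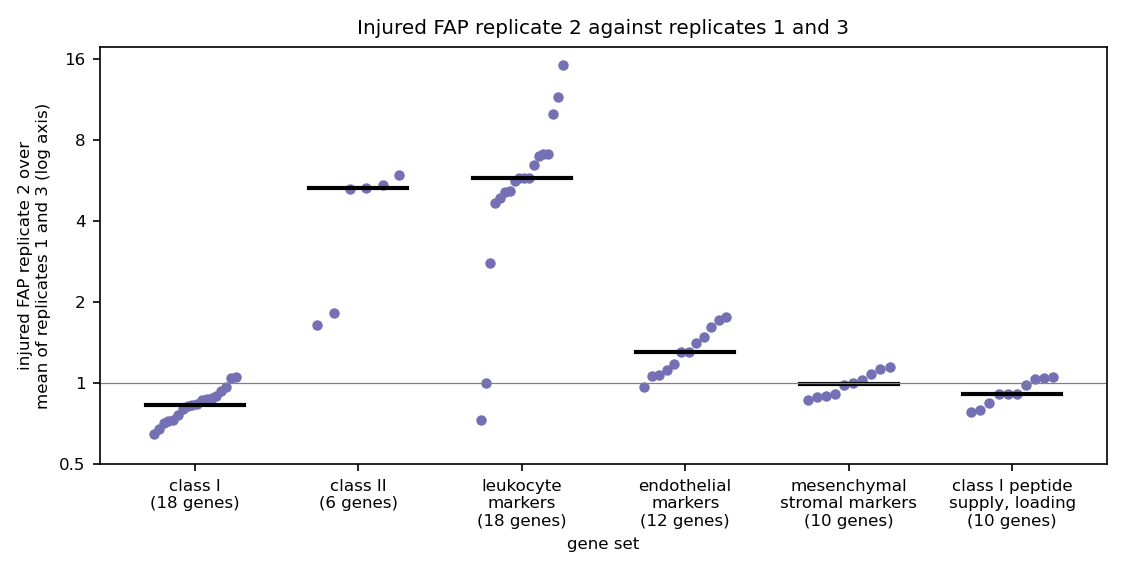
Ratio (log axis) of the value in injured FAP replicate 2 to the mean of replicates 1 and 3, 1 point per gene with a mean of at least 10 in those replicates and a bar at the median of each set. The medians are 0.833 for class I, 5.29 for class II, 5.77 for leukocyte markers, 1.30 for endothelial markers, 0.991 for mesenchymal stromal markers and 0.914 for class I peptide supply and loading.

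The zeros of the FAP libraries were not limited to class II. Among 4193 genes with a value above 1000 in the CD31+CD45+ library, 56 had a 0 in FAP 1 and FAP 2 alike. In all 3 ASC libraries 6 of these genes were at 0, and in all 3 injured FAP libraries 1 was. A 0 in all 3 libraries is a stricter condition than a 0 in both FAP libraries. The FAP libraries also had fewer reads, so these counts are not directly comparable. Cd74, H2-Aa, H2-Ab1 and H2-Eb1 were above 0 in each ASC and each injured FAP library. What set these zeros was not tested.

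In ASCs against FAPs all 6 class II members tested were called higher, and 0 lower, beside 23.4% and 23.8% of all genes. The count lower was also 0 at an unadjusted p under 0.05 and with edgeR and DESeq2. The median log2 fold change was 3.96, or 2.45 with the genes at 0 in FAPs at their bound, against 0.0049 over all genes. Cd74 was at least 13.1-fold, H2-Ab1 7.33-fold, H2-Eb1 5.92-fold and H2-Aa 5.07-fold higher than the FAP floor (limma adjusted p = 0.000174, 0.000333, 0.000415 and 0.00209). H2-Aa was not called with a pseudocount of 8 (adjusted p = 0.0744). Without ASC 1 the bound was 7.99-fold for Cd74 and 3.19-fold for H2-Aa, and the ASC libraries lay within 16.3 to 17.1 for H2-Eb1. H2-DMa was 2.61-fold higher (log2 fold change 1.38, limma adjusted p = 0.0132), a call lost without FAP 1 (0.86, 0.135). H2-DMb1 was 1.87-fold higher (log2 fold change 0.90, limma adjusted p = 0.0408), a call lost in 7 of 19 alternatives, among them the ones without ASC 1 (0.64, 0.102), FAP 1 (0.74, 0.19), FAP 2 (1.06, 0.0781) and injured FAP 1 (0.90, 0.0581).

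In injured FAPs against ASCs, 2 of the 6 class II members were higher, Cd74 and H2-Aa, and 1 lower, H2-DMb1, beside 25.0% and 25.8% of all genes. The median log2 fold change was 1.39, and 0.60 without injured FAP 2, against 0.02 over all genes. Cd74 had means of 37.1 ± 25.0 (SD, n = 3) and 264 ± 269 (SD, n = 3) (log2 fold change 2.51, limma adjusted p = 0.00554), and without injured FAP 2 the log2 fold change was 1.72 (adjusted p = 0.016). H2-Aa had means of 14.4 ± 9.50 (SD, n = 3) and 90.6 ± 97.4 (SD, n = 3) (log2 fold change 2.22, limma adjusted p = 0.0172). Its call was lost without injured FAP 2 (1.38, 0.0679) and without ASC 2 (1.82, 0.0573). H2-Ab1 (1.49, limma adjusted p = 0.0536) and H2-Eb1 (1.30, 0.079) were not called, though edgeR and DESeq2 called both. H2-Ab1 was called in 8 of 18 alternatives, among them the replicate block (adjusted p = 0.034), quantile normalization (0.0488), a common 75th percentile (0.0405), a pseudocount of 8 (0.0461) and the one without injured FAP 3 (2.01, 0.0237). Without injured FAP 2 they were at 0.68 and 0.51. H2-DMb1 fell by 1.40 on the log2 scale (limma adjusted p = 0.00211), and H2-DMa was not called (-0.44).

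Genes that supply peptides to class I molecules rose in injured FAPs beside Tap1. Of 10 genes of class I peptide supply and loading, 8 were higher and 0 lower in injured FAPs than in FAPs, beside 24.9% and 27.7% of all genes, with a median log2 fold change of 0.83 against -0.05 over all genes. The count lower was also 0 at an unadjusted p under 0.05 and with edgeR and DESeq2. Canx, a chaperone of newly made heavy chains, rose from 5240.3 ± 261 (SD, n = 2) to 13685 ± 676 (SD, n = 3) (log2 fold change 1.38, limma adjusted p = 2.19e-06). Psmb8, an inducible proteasome subunit, rose from 291 ± 32.3 (SD, n = 2) to 571 ± 96.4 (SD, n = 3) (log2 fold change 0.96, limma adjusted p = 0.00229). Pdia3 and Calr, which work with tapasin in peptide loading, rose too (0.92 and 0.87, limma adjusted p = 2.85e-05 and 0.00012). All 10 were higher in ASCs than in FAPs, beside 23.4% of all genes (median 0.92), with Psmb8 at 1.72, Psme1, a proteasome activator, at 1.11, Psmb9 at 1.10 and Erap1, which trims peptides, at 1.05. With a common 75th percentile 6 of the 10 were called, and with quantile normalization Calr and Pdia3 turned to -0.23 and -0.12 and Canx lost its call (0.16, adjusted p = 0.197). Their calls were also lost without FAP 2 (0.57 and 0.50), Calr's without ASC 1 (0.56) and Pdia3's without ASC 3 (0.58). edgeR called neither (0.56 and 0.54), and so 8 of the 10. Between injured FAPs and ASCs, 1 was higher, Canx (0.61, not called without ASC 2 at 0.55), beside 25.0% of all genes, and 2 were lower, Psmb8 (-0.76) and the tapasin relative Tapbpl (-1.10), beside 25.8%, with a median of -0.16. With quantile normalization 3 were called higher, Calr (1.42), Canx (1.26) and Pdia3 (1.14). Psmb9 was called lower too without ASC 1 (-0.62), ASC 3 (-0.59) or injured FAP 3 (-0.62).

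The regulators of MHC genes, 19 in all, had a median of -0.04 in injured FAPs against FAPs, and 3 of them fell, beside 27.7% of all genes. Jak2 (1.44) and Jak1 (0.63), kinases of the interferon gamma receptor, and Nfkb1 (0.76), a subunit of NF-kappaB, rose. The call of Jak1 was lost without FAP 2 (0.55), with quantile normalization (0.52) and with a common 75th percentile (0.54), and that of Nfkb1 without FAP 1 (0.70, adjusted p = 0.0738). Rfxank (-1.56) and Rfxap (-0.81), parts of the complex that binds MHC promoters, and Ifngr1 (-1.06), a chain of the interferon gamma receptor, fell. In ASCs against FAPs 9 were higher and 2 lower, beside 23.4% and 23.8% of all genes (median 0.28), led by Nfkb1 (2.99), Jak1 (2.38), Jak2 (2.03) and Socs1 (1.89), an inhibitor of this pathway. Rfxank was lower (-1.46), and so was Ifngr1 (-0.61), the latter not without ASC 1 (-0.51) or FAP 1 (-0.53). With quantile normalization Nfkb1 was at 2.34 and Jak1 at 1.57. Irf8 was also called higher, but not without FAP 1 (0.64, adjusted p = 0.111). In injured FAPs against ASCs 9 were lower, beside 25.8% of all genes (median -0.45), with Socs1 (-2.31), Nfkb1 (-2.23), Irf1 (-1.91), an interferon response factor, and Jak1 (-1.75) lowest. With quantile normalization Jak1 was at -1.05 in this comparison. Jak2 (-0.59) was not called without ASC 1 (-0.46), injured FAP 1 (-0.56) or injured FAP 2 (-0.55), with edgeR (-0.51), with quantile normalization (-0.32) or with a common 75th percentile (-0.48).

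Of the class II processing genes, Ctss, the protease that trims the invariant chain, was 3.95, 1.13 and 2.51 in ASCs, 0 and 0 in FAPs, 63.6 and 51.1 in replicates 1 and 3 of injured FAPs, and 312 in their replicate 2. Like Cd74 it was listed at 0 in FAPs and was highest in replicate 2, at least 50.1-fold above the FAP floor in injured FAPs and 20.2-fold without replicate 2 (limma adjusted p = 3.23e-05, fitted log2 fold change 6.67 and 5.86 without replicate 2). Of the 5 tested in this list, 2 rose in injured FAPs, Ctss and Lgmn (1.57), a lysosomal protease, and 1 fell, Ifi30 (-0.91), a lysosomal reductase, beside 24.9% and 27.7% of all genes (median -0.21). Against FAPs, ASCs had 2 higher and 0 lower, beside 23.4% and 23.8% of all genes, Lgmn (2.10) and Ctsl (1.38, 0.62 with quantile normalization), with a median of 1.38, or 0.03 with Ctss at its bound. At an unadjusted p under 0.05 and with edgeR and DESeq2 the count lower was also 0, and it was 1, Ifi30, without ASC 3 (-0.60) or FAP 1 (-0.66), with quantile normalization (-0.80) and with a common 75th percentile (-0.73). Ctss was called higher in ASCs without ASC 2 (adjusted p = 0.0475) or injured FAP 2 (0.0319). Against ASCs, injured FAPs had Ctss higher (4.93, and 4.12 without injured FAP 2) and Ctsl lower (-1.84), beside 25.0% and 25.8% of all genes, with a median of -0.38. Lgmn was also called lower without ASC 1 (-0.61) or injured FAP 2 (-0.65).

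Of the 5 class I-like molecules tested, Fcgrt (-1.60), the neonatal Fc receptor, Hfe (-1.03), a regulator of iron uptake, and Mr1 (-0.87), which presents vitamin B metabolites, fell in injured FAPs against FAPs and 0 rose, beside 27.7% and 24.9% of all genes (median -0.87). At an unadjusted p under 0.05 and with edgeR and DESeq2 the count higher was also 0, and with quantile normalization it was 1, Cd1d1 (0.85). Procr, the receptor of protein C, was the 1 called higher in ASCs than in FAPs, beside 23.4% of all genes, from 2131 ± 109.7 (SD, n = 2) to 34268 ± 16465 (SD, n = 3) (log2 fold change 3.90, limma adjusted p = 3.08e-06, median of the list 0.49), and at 3.22 with quantile normalization. Without ASC 2, Mr1 (0.59) and Fcgrt (0.60) were called higher too, and with quantile normalization Cd1d1 was (1.13, limma adjusted p = 0.0107). Against ASCs, injured FAPs had 4 lower, beside 25.8% of all genes, Procr (-3.41), Fcgrt (-2.10), Mr1 (-1.35) and Hfe (-1.15), with a median of -1.35. Among 5 co-stimulatory and co-inhibitory ligands tested, Cd274, which codes for PD-L1, was 1485, 746 and 1249 in ASCs, 199 and 191 in FAPs, 123 and 128 in replicates 1 and 3 of injured FAPs, and 119 in their replicate 2. ASCs were far above FAPs (log2 fold change 2.51, limma adjusted p = 1.19e-05) and injured FAPs (log2 fold change -3.16, limma adjusted p = 6.93e-07). Injured FAPs were below FAPs (log2 fold change -0.65, limma adjusted p = 0.0343), a call lost without either FAP library or any 1 injured library (-0.68 to -0.62, adjusted p 0.065 to 0.128). Icosl, the ligand of ICOS, fell from 1203 ± 29.0 (SD, n = 2) to 242 ± 22.3 (SD, n = 3) (log2 fold change -2.31, limma adjusted p = 3.63e-07). It was also lower in ASCs than in FAPs (-1.31) and, like Cd80 (-1.06), lower in injured FAPs than in ASCs. Cd40, low with a highest group mean of 34.5, was called higher in injured FAPs (2.39) and ASCs (3.20) than in FAPs, and both calls were lost without FAP 1 (0.58, adjusted p = 0.434, and 1.40, 0.0829). The first was also lost without any 1 injured library (2.16 to 2.51), and without FAP 2 the values were 4.20 and 5.01. Cd80 was called higher in ASCs than in FAPs without ASC 1 (0.89). The medians of the ligands were -0.45, 0.62 and -0.999 in the order injured FAPs against FAPs, ASCs against FAPs and injured FAPs against ASCs.

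H2-Ke6, which lies inside the locus and codes for a metabolic enzyme of steroids and fatty acids, was 333, 349 and 321 in ASCs, 465 and 481 in FAPs, 303 and 301 in replicates 1 and 3 of injured FAPs, and 264 in their replicate 2. It was highest in FAPs, with no overlap between FAPs and the others. It fell in injured FAPs against FAPs (log2 fold change -0.71, limma adjusted p = 0.000599) and was not called between ASCs and FAPs (-0.50) or between injured FAPs and ASCs (-0.21). Neighbours in the locus had like and unlike values. H2-Ab1 and H2-Aa, 13.3 kb apart on opposite strands, and H2-Aa and H2-Eb1, 18.0 kb apart, were called higher in injured FAPs and in ASCs than in FAPs, while H2-Aa alone of the 3 was called between injured FAPs and ASCs. H2-T23 and H2-T22, 4.27 kb apart on the same strand, had log2 fold changes of 1.20 and -0.82 in ASCs against FAPs, and H2-T-ps and H2-T10, 4.22 kb apart on the same strand, 3.18 and -0.38.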

How the data were processed

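RNA of sorted mouse cells was sequenced in 9 libraries. The submitters' processing notes name FastQC, HISAT2, Subread and DESeq2 and the build mm10, and how the values were scaled is not stated. The authors deposited a signal per gene and library, and 100% of the values were whole reads divided by a size factor, within 0.01 read. The deposited table has 26214 genes, 2 empty columns and 0 columns of other samples. Members were taken by symbol, and members and lists were chosen with earlier results of these data known.

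Log2 of the value plus 1 was modelled by limma 3.58.1 (R 4.3.3) with a mean-variance trend, for 13601 genes with a mean of at least 10 in 8 libraries and with the 3 groups in 1 fit, and p was adjusted over these genes by Benjamini-Hochberg. The CD31+CD45+ library has no replicate and entered no fit. Alternatives were other pseudocounts, filters and scalings, an unadjusted p, only the compared groups, replicate number as a block, 1 library left out, and edgeR 4.0.16 and DESeq2 1.42.0 on recovered reads. In the order injured FAP against FAP, ASC against FAP and injured FAP against ASC, limma called 7153, 6416 and 6909 genes, edgeR 7303, 6450 and 7000 and DESeq2 7227, 6412 and 6865. Exon lengths came from GENCODE M21 and promoters from RefSeq (GRCm38.p6). A level was given library by library for genes with a group mean of at least 100. Genes of the other lists were named when called with such a mean, up to 4 per direction. Python 3.11.15, pandas 2.3.3, numpy 2.4.6 and matplotlib 3.10.9 were used. The procedure was tested on simulated data. Floors of 3 reads cover counting error only.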

Additional observations from a re-analysis of the deposited data

Results flagged for a closer look

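The CD31+CD45+ library of glycerol-injured muscle, which has no replicate and entered no test, had a summed class II value of 29486.4. The highest NaCl control library was ASC 1, at 309.58.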

How the results depend on the processing

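Over the 25 tested members and the 3 comparisons, 1344 of 1407 calls under the alternatives were the same, 37 were lost, 26 were gained and 0 were reversed. When 1 library was left out, 574 of 600 were the same, 20 were lost and 6 gained. For genes of the other lists 2409 of 2505 were the same, and 2 were reversed in sign in ASCs against FAPs with quantile normalization, Calr (-0.23, adjusted p = 0.0718) and Pdia3 (-0.12, 0.349), neither called there.

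In injured FAPs against FAPs, the 2 class I members called lower became 1 with a mean of at least 50, 1 with quantile normalization and 4 with only the 2 compared groups, and ranged from 1 to 4 with 1 library left out. The 4 class II members called higher became 1 with a mean of at least 50. H2-DMa was called higher too with quantile normalization and with an unadjusted p. In ASCs against FAPs, the 0 class I members called lower became 1 with a pseudocount of 8, no filter, a common 75th percentile, an unadjusted p or edgeR, and ranged from 0 to 1 with 1 library left out. The 6 class II members called higher became 2 with a mean of at least 50. In injured FAPs against ASCs, the 0 class I members called higher became 1 with no filter. The 2 class II members called higher became 1 with a mean of at least 50 and 4 with edgeR and with DESeq2, and ranged from 1 to 3 with 1 library left out.

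With the replicate block, 7046, 6287 and 6861 genes were called in the order injured FAPs against FAPs, ASCs against FAPs and injured FAPs against ASCs. Correlations across genes between libraries of different groups with the same replicate number, each relative to its group mean, were -0.054 to 0.045. The common 75th percentile shifted the median log2 fold change of all genes to -0.15, -0.20 and 0.13 in that order. The cause was not tested.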
